A study of Mus musculus with 4 samples.

Results

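The ion and phosphate transporter genes of 8 solute carrier (SLC) families were described by their RNA polymerase II (Pol II) occupancy in mouse heart, kidney, liver and lung. The members were all protein-coding genes whose symbol is Slc4a, Slc9a, Slc12a, Slc13a, Slc20a, Slc23a, Slc26a or Slc34a followed by a number, and 53 of 21883 protein-coding genes met this rule. Chromatin immunoprecipitation and sequencing of Pol II was done in flash-frozen organs of 2 C57BL/6 mice with antibody 4H8 to the C-terminal domain of the polymerase, and 1 list of called regions per organ was analysed. No genotype, treatment, age or time differed between the organs in the labels, and the sources used here do not say whether a list pools the mice. Since n = 1 per organ, values carry no replicate spread and organs were compared without a test. Depth ranged from 9880184 tags (heart) to 20058183 tags (liver). Of 5 marker genes fixed for each organ, 5 were at least 50% covered in their own organ's list, and 0 to 2 in each of the other lists. In whole organs, fewer cells of a type and less polymerase per cell cannot be told apart.

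These families move ions across cell membranes. Slc4a proteins carry bicarbonate, Slc9a proteins exchange sodium for protons, Slc12a proteins move chloride with sodium or potassium, Slc13a proteins take up sulfate and carboxylates such as citrate, Slc20a and Slc34a proteins take up phosphate with sodium, Slc23a proteins take up ascorbate, and Slc26a proteins exchange anions. Kidney tubules use many of them in series to reclaim salt, bicarbonate, phosphate and sulfate from the filtrate, while lung, liver and heart use smaller subsets for fluid transport, metabolite uptake and pH control.

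Kidney held the most covered and the most leading members with all regions used, and for leading members this ranking ended under 3 stricter choices of regions given below. Covered percent here means how much of a gene's annotated span, introns included, lay inside called regions, and genes reaching 50% counted as covered. On that measure 17 of 53 members (32.1%) were covered in kidney against 21.1% of all protein-coding genes. In heart 8 members (15.1%) were covered against 16.1% of all genes, in liver 11 (20.8%) against 21.9%, and in lung 8 (15.1%) against 15.1%, all near the background. Tags per kb rest on the deposited tag counts of regions, scaled by the authors to 10000000 tags per list. Each region's tags were shared evenly over its length, and the part inside the gene span was divided by the span. A gene was counted as leading in an organ when it was covered there and had at least 2 times the tags per kb of each other list. Kidney had 7 leading members (13.2%, against 2.68% of all genes), lung 3 (5.66%, against 0.859%), heart 1 (1.89%, against 2.67%) and liver none (against 5.92%). The kidney-leading members were Slc4a9, Slc9a3, Slc9a8, Slc12a1, Slc13a1, Slc13a3 and Slc34a1, those of lung were Slc23a2, Slc26a9 and Slc34a2, and that of heart was Slc4a3. No region touched the span of 16 members in heart and 8 in kidney, or of 21 in liver and 13 in lung, which is 30.2% of members in heart against 43.0% of all genes, 15.1% against 39.0% in kidney, 39.6% against 43.3% in liver and 24.5% against 39.7% in lung. A gene without a region had no call at the depth of that list, which does not show that polymerase was absent.

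**Figure D1:**
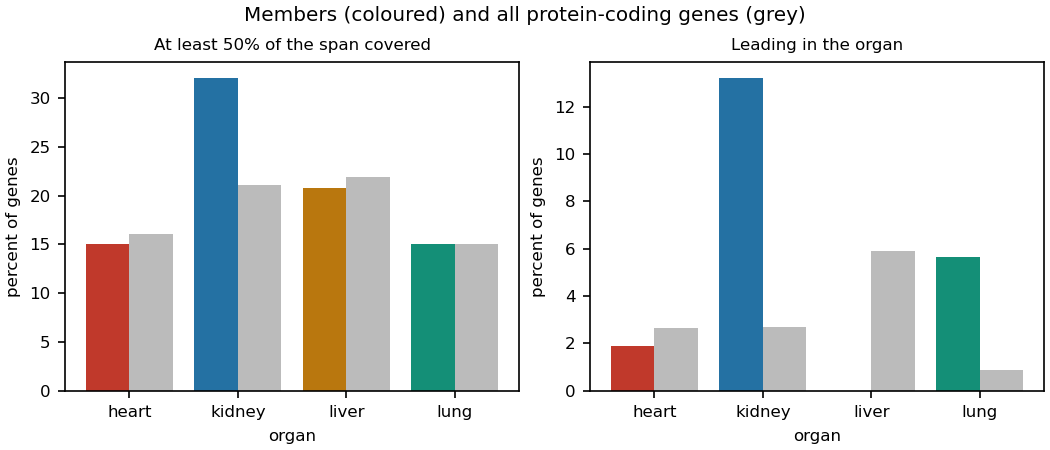
Percent of the 53 SLC members (coloured bars) and of all 21883 protein-coding genes (grey bars) that were at least 50% covered (left) or leading (right) in each organ, with 1 list per organ and so no error bars. The members' bar exceeds the grey bar for covered genes in kidney (32.1% against 21.1%) and for leading genes in kidney (13.2% against 2.68%) and lung (5.66% against 0.859%).

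The members are longer than most genes, with a median span of 43.2 kb against 17.2 kb. Among the 27 members between 22.6 and 83.2 kb, 37.0% were covered in kidney, compared with 14.9% of the 6297 genes of that span range, and 22.2% led there, compared with 3.06%. The kidney excess depended on which regions were used. With regions that overlap no other protein-coding gene, 8 members (15.1%) were covered in kidney against 8.55% of all genes and 4 led (7.55% against 2.13%). With each list cut to equal covered length, 12 (22.6% against 18.6%) were covered and 3 led (5.66% against 2.45%), without Slc4a9, Slc9a3, Slc12a1 and Slc13a1, and with the top 50% of regions by score 8 (15.1% against 12.9%) were covered and 3 led (5.66% against 3.25%). Lung also had 3 leading members in each of these settings, but not always the same ones. With the top 50% by score, Slc26a9 was covered over 41.5% in lung and so did not lead. Heart had 4 leading members with regions over no other gene (7.55% against 2.30% of all genes), as many as kidney, the added members being Slc12a4, Slc20a2 and Slc26a10.

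Across the 4 lists, 28 members (52.8%) were covered in none, 13 in 1 list, 7 in 2, 3 in 3 and 2 (3.77%) in all 4. Among all genes 66.9% were covered in none and 8.03% in all 4. With all regions used, the members in all 4 lists were Slc20a1 and Slc23a1. A region within 1 kb of either gene end was found for 27 members in heart (50.9%, against 51.4% of all genes), 39 in kidney (73.6%, against 56.8%), 28 in liver (52.8%, against 53.3%) and 32 in lung (60.4%, against 54.7%). Of the 38 members with a start of transcription listed in RefSeq, a region lay within 1 kb of a start for 16 in heart (42.1%, against 49.7% of genes with a listed start), 23 in kidney (60.5%, against 54.8%), 15 in liver (39.5%, against 51.4%) and 18 in lung (47.4%, against 52.4%). The gene-end count takes either end of all 53 members, the start count the listed starts of 38.

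**Figure D2:**
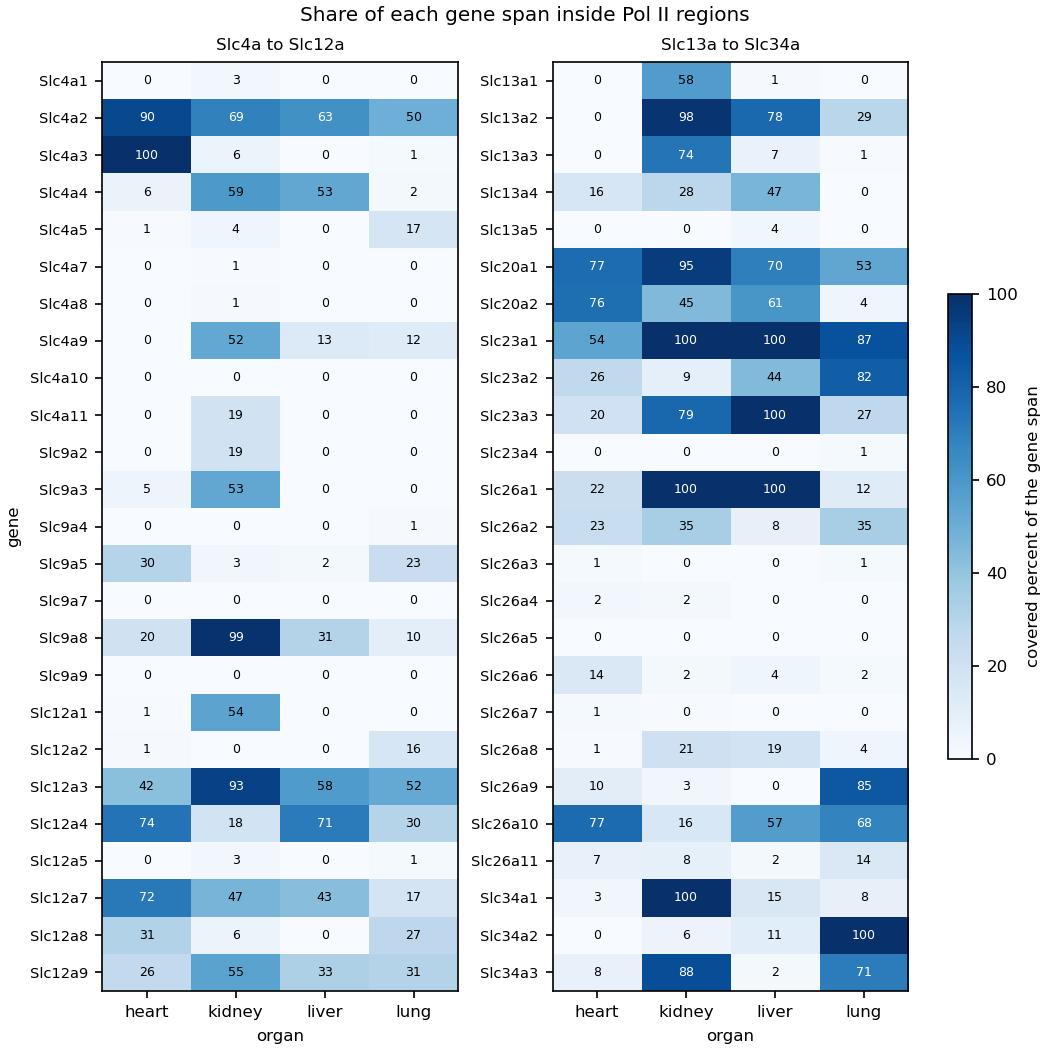
Covered percent of the gene span (colour and printed value, 0 to 100) for 50 of the 53 members in rows, by family, and the 4 organs in columns. Rows with a dark cell in just 1 organ, such as Slc34a1 in kidney, Slc34a2 in lung and Slc4a3 in heart (100% each), stand beside rows that are filled in every organ, such as Slc20a1 (53.1 to 95.3%), and rows near 0 in every organ, such as Slc9a9.

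The type II phosphate transporters, encoded by the Slc34a family, divided between kidney and lung. Slc34a1 encodes the main phosphate transporter of the proximal tubule brush border (chromosome 13, 55399622 to 55414695, 15.1 kb in mm10). It had 0.736 tags per kb in heart and 39.8 in kidney, with 2.49 in liver and 1.37 in lung, and was covered over 3.32%, 100%, 14.9% and 7.98%. Kidney was 15.9 times the next list, liver, with a 95% Poisson interval of 37.3 to 42.3 tags per kb that covers counting error only. The kidney region was 32.9 kb long and also overlapped F12 and Pfn3, and Slc34a1 was at 0 in kidney when such regions, or regions below the top 50% by score, were left out. Slc34a2 encodes the phosphate transporter of alveolar type 2 cells (chromosome 5, 53049353 to 53071664, 22.3 kb). It had no heart region, 1.03 tags per kb in kidney, 2.68 in liver and 23.8 in lung (interval 22.1 to 25.7). A lung region of 26.5 kb that overlapped no other protein-coding gene held the whole of Slc34a2, against 5.80% covered in kidney and 10.9% in liver. Slc34a3, the other phosphate transporter of the proximal tubule (5.37 kb), was at 23.7 tags per kb in kidney and 18.7 in lung, with 3.03 in heart and 0.424 in liver. The kidney regions and the larger lung region also lay over neighbouring genes, among them Tubb4b, and with regions over other genes left out it was covered in neither list.

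The 250 bases before the listed start of Slc34a1 and of Slc34a2 are shown because the former led in kidney and the latter in lung. All bases printed here come from RefSeq on GRCm38.p6, written in the direction of transcription in lower case. Capitals mark matches on either strand to 6 short motifs, which can overlap each other. The letters TATAAA stand for the TATA box. The letters CCAAT stand for the CCAAT box. For the GC box GGGCGG was searched. The core of the motif of HNF1, a factor of kidney and liver epithelia, was searched as GTTAAT. For HNF4, of the same organs, CAAAGT was searched. For the Nkx2 factors of heart and lung CAAGTG was searched. The windows lie on the plus strand at chr13:55399398-55399647 and chr5:53049103-53049352.

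Slc34a1: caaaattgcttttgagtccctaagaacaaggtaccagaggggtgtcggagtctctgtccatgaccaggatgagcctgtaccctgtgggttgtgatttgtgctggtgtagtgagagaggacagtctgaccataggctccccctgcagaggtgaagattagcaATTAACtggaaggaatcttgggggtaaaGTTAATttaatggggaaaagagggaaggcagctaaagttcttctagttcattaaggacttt
Slc34a2: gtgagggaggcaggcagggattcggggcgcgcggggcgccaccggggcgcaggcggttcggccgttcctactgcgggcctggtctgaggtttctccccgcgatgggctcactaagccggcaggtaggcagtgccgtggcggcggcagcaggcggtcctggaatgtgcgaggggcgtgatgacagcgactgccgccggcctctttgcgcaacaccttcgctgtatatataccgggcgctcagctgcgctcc

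The Slc34a1 window lay inside a region over all 250 bases in kidney and over 0 in heart, liver and lung, and held 2 matches to GTTAAT. That of Slc34a2 lay inside regions over 250 bases in kidney, liver and lung and 0 in heart, and held no match to the searched motifs. Among the 49 listed starts of members, 8.16% held GTTAAT within 250 bases, against 5.86% of the 21262 starts of all protein-coding genes. TATAAA was found in 20.4% against 11.6%, CCAAT in 42.9% against 35.4%, GGGCGG in 46.9% against 42.6%, CAAAGT in 6.12% against 11.9% and CAAGTG in 8.16% against 11.2%. These matches are descriptions of letters, not of binding.

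Of the type III phosphate transporters, Slc20a1 was occupied more evenly across the organs than Slc20a2. Slc20a1, a widely expressed phosphate transporter (12.8 kb), was at 16.5 tags per kb in heart and 22.0 in kidney, with 13.4 in liver and 9.33 in lung, covered over 76.6%, 95.3%, 69.5% and 53.1%. The highest list was 1.33 times the next. Under stricter choices of regions Slc20a1 was not covered in every list. It was covered over 0% in heart and 16.0% in lung with the top 50% of regions by score. Lung coverage was 45.3% with regions of at least 10 tags, and liver coverage 35.3% with equal covered length. Slc20a2, its paralogue (92.9 kb), was at 20.7 in heart and 9.32 in kidney, with 19.3 in liver and 0.789 in lung, so lung stood below the others for this gene. It overlaps Smim19, and without regions over other genes Slc20a2 was at 17.4 tags per kb in heart (65.4% covered) and 3.86 in liver (19.8%).

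Among the bicarbonate transporters, Slc4a3 stood out in heart. It encodes an anion exchanger of heart muscle and brain (chromosome 1, 75546044 to 75559431, 13.4 kb). Slc4a3 had 40.8 tags per kb in heart (interval 37.4 to 44.3), 1.04 in kidney, none in liver and 0.244 in lung, the highest tags per kb of any member in any list, with an interval that overlaps that of Slc34a1 in kidney. Heart was 39.3 times kidney, the next list. The heart region was 27.6 kb long, overlapped no other protein-coding gene and covered 100% of the 10 kb beyond the far end of the gene. The 250 bases before its start (plus strand, chr1:75546212-75546461) were inside regions over 250 bases in heart and 217 in kidney, and held GC boxes.

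Slc4a3: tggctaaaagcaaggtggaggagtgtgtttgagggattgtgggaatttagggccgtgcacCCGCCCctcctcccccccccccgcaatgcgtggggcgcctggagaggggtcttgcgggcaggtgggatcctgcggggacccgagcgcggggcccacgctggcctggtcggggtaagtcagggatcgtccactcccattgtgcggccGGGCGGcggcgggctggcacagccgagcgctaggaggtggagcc

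Slc4a2, a widely expressed anion exchanger (17.2 kb), was at 32.7 tags per kb in heart and 17.9 in kidney, with 14.0 in liver and 10.3 in lung. It was covered over 90.3%, 68.6%, 62.8% and 49.5%, the lung value lying just outside the threshold. In heart and kidney most of this lay in regions shared with Cdk5 at the near end or with Fastk, Tmub1 and Agap3 at the far end, and without such regions Slc4a2 was at 1.03 tags per kb in heart, 1.91 in kidney and 5.03 in liver. Slc4a9, a transporter of intercalated cells of the collecting duct (28.2 kb), led in kidney with 9.32 tags per kb (interval 8.46 to 10.2), against 2.33 in liver, 2.13 in lung and none in heart. Its kidney coverage of 52.4% lay just inside the threshold, and without regions under 10 tags it was under 50%. Slc4a1, the anion exchanger of red cells and of acid-secreting intercalated cells, had a 0.501 kb kidney region of 6.93 tags over 3.04% of its span and no region in the other lists. Of 6 red cell precursor genes fixed for comparison, none reached 50% in any list. The globin genes Hbb-bs, Hbb-bt and Hba-a1 were at 0 in all 4, whereas Alas2 was covered over 29.8% in liver and Epb42 over 14.3% in kidney. Of 5 intercalated cell genes, 1 (Tmem213, which lies within the span of Atp6v0a4) was covered in kidney and lung, and their summed tags per kb were 49.5 in kidney and 18.8 in lung, with 3.87 in liver and 0 in heart. Tmem213 alone gave 41.7 of the kidney sum and 11.1 of the lung sum. Atp6v0d2 went the other way, at 7.16 tags per kb in lung and 3.21 in liver against 1.15 in kidney. The other listed genes with any region were highest in kidney. Foxi1, which encodes the transcription factor of intercalated cells, was at 0 in all 4.

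Slc4a4 was occupied in both kidney and liver, in proportions that differed along the gene. It encodes the sodium-bicarbonate cotransporter by which proximal tubule cells return bicarbonate to the blood, and spans 446 kb (chromosome 5, 88793858 to 89239656). Over the whole gene it had 1.37 tags per kb in heart and 16.6 in kidney, with 10.8 in liver and 0.282 in lung. RefSeq lists a start at 88887260 and another at 89027966, 93.4 and 234 kb into the span. Before the first of these, the kidney list had 1.73 tags per kb with 9.76% covered, and the liver list 4.42 with 18.1% covered. Between them, kidney had 9.52 with 42.3% covered and liver 16.3 with 72.2% covered, so liver was the higher in both stretches. After the second, kidney had 27.8 tags per kb with 92.4% covered, against 9.91 with 55.5% covered in liver. The ratio of kidney to liver was thus 0.392, 0.585 and 2.81 along the gene. An 86.5 kb kidney region of 3256.2 tags began at 89025665, before the second start. Heart had its highest value between the starts (3.27 tags per kb, against 0.0975 before and 0.659 after), and lung likewise (0.748, against none and 0.0959). This division of the gene was chosen after its values were seen. The 250 bases before each start are shown because the gene was divided there (plus strand, chr5:88887010-88887259 and chr5:89027716-89027965).

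Slc4a4, first start: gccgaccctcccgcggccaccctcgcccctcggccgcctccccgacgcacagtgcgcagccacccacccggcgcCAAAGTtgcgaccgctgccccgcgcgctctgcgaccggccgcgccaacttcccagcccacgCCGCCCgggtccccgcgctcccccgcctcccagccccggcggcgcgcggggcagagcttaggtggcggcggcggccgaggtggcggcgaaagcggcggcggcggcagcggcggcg
Slc4a4, second start: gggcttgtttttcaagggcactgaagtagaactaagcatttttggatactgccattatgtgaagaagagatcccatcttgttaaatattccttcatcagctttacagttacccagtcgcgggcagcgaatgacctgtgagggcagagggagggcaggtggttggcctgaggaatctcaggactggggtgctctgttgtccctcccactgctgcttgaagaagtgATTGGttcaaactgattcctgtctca

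The window of the first start lay inside a region over 250 bases in liver and 0 in the other lists, and that of the second over 250 bases in kidney and liver and 0 in heart and lung. The first is 82.0% G and C and the second 48.8%, against a median of 55.6% over all starts. The first held a GC box and a CAAAGT match, the second a CCAAT box.

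The other Slc4a genes had little or no coverage. Slc4a5 was at 3.08 tags per kb in lung and under 1 in the others, and Slc4a11 at 2.96 in kidney with no region in the span elsewhere. Slc4a7, Slc4a8 and the neuronal Slc4a10 had regions over less than 1% of the span in any list.

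Among the sodium-proton exchangers, Slc9a3 and Slc9a8 led in kidney. Neither led with regions over other genes left out, when Slc9a3 was covered over 49.5% and Slc9a8 over 48.2%, at 13.9 tags per kb for Slc9a8, whose second kidney region of 32.6 kb reached Spata2. Slc9a3 encodes the apical exchanger that drives sodium and bicarbonate recovery in the proximal tubule (chromosome 13, 74086255 to 74169442, 83.2 kb). It had 13.9 tags per kb in kidney (interval 13.2 to 14.5), 1.04 in heart and no region in liver or lung. Its kidney coverage of 52.9% was uneven, with 21.6% of the first of 4 equal parts, 42.0% of the second, 100% of the third and 47.9% of the last inside regions. The listed start of Slc9a3 lies 35.2 kb into the span, in the second of these parts, so the first part lies before it. Slc9a8, an exchanger of the Golgi and of epithelial surfaces (chromosome 2, 167421599 to 167477000, 55.4 kb), had 4.39 tags per kb in heart, 26.6 in kidney (interval 25.6 to 27.7), 5.66 in liver and 2.03 in lung. All 4 lists had a region at its start. In liver 81.2% of the first of these parts and 8.60% of the last were covered, in lung 30.3% and 7.95%, in heart 38.5% and 26.0%, and in kidney 100% of both. The 250 bases before its start (plus strand, chr2:167421460-167421709) lay inside regions over all 250 bases in every list and held GC boxes.

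Slc9a8: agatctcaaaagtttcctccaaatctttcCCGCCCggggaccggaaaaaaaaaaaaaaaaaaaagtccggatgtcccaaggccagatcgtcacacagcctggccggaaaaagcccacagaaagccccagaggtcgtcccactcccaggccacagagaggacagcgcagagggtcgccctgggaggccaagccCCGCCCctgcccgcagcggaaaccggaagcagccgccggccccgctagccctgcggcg

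Slc9a2, an epithelial exchanger, was at 3.56 tags per kb in kidney with no region elsewhere. Slc9a5 was at 6.07 in heart and 4.95 in lung and under 1 in kidney and liver. Slc9a4, an exchanger of the stomach, and the endosomal and Golgi exchangers Slc9a7 and Slc9a9 were each covered over less than 1% in any list, and Slc9a9 is the longest member at 561 kb.

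The cation-chloride cotransporters included kidney segment genes and widely occupied genes. Slc12a1 encodes the loop-diuretic target of the thick ascending limb (chromosome 2, 125152510 to 125230002, 77.5 kb). Slc12a1 had 8.96 tags per kb in kidney (interval 8.45 to 9.49), 0.235 in heart and no region in liver or lung. Kidney coverage was 54.4%, highest in the first of 4 equal parts (74.5%), with 42.9% in the second and 60.3% in the last.

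Slc12a3, the thiazide target of the distal convoluted tubule (chromosome 8, 94329109 to 94366222, 37.1 kb), was occupied in all 4 organs. It had 16.2 tags per kb in heart and 27.1 in kidney, with 30.5 in liver and 10.9 in lung, and was covered over 42.0%, 93.3%, 58.5% and 52.2%. The occupied part differed. The last of 4 equal parts of the gene was covered over 100% in every list, and the first over 81.8% in kidney, 5.40% in liver and 0 in heart and lung. A region lay within 1 kb of the listed start in kidney, where it also overlapped Nup93, and in none of the other lists. The liver region over the far part was 56.0 kb long, carried 3420.1 tags and also overlapped Herpud1, which encodes a protein of the endoplasmic reticulum stress response. Without regions over other genes Slc12a3 was at 2.10 tags per kb in liver and 25.9 in kidney. The heart and lung regions there, of 15.2 and 16.9 kb, ran past the end of Slc12a3 without reaching another protein-coding gene. Coverage of the 10 kb beyond that end was 83.0% in heart and 93.7% in kidney, with 100% in liver and 90.1% in lung.

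**Figure D3:**
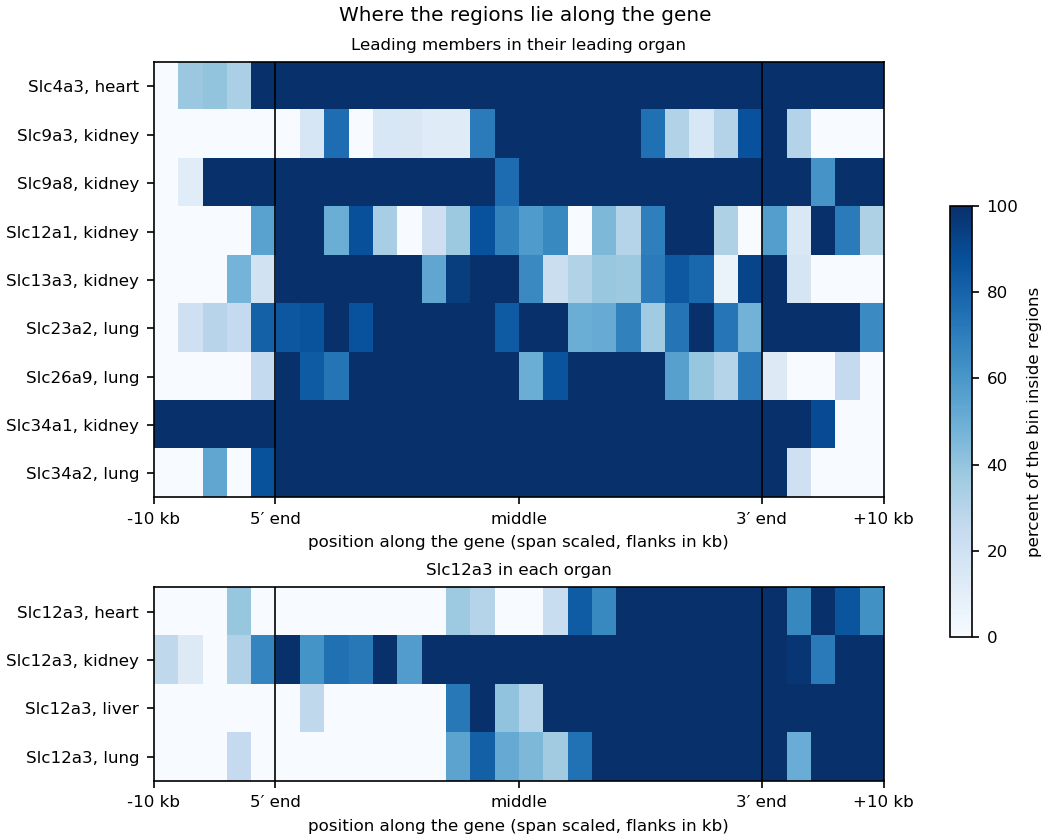
Share of each bin inside Pol II regions (colour, 0 to 100%) along the gene, with the annotated span divided into 20 bins in the direction of transcription and 10 kb flanks in 5 bins each. The listed start of Slc9a3 lies 35.2 kb into its span. The upper panel shows the 9 leading members with a listed start in their leading organ, where Slc34a1, Slc34a2 and Slc4a3 are filled throughout and Slc9a3 and Slc12a1 are broken, and the lower panel shows Slc12a3, filled near the start in kidney and at the far end in all 4 organs.

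Slc12a2, the sodium-potassium-chloride cotransporter of secretory epithelia (68.3 kb), was covered over 16.3% in lung, over 0.962% in heart and without a region in kidney or liver. The potassium-chloride cotransporter Slc12a4 (22.6 kb) was at 15.8 in heart and 16.3 in liver, against 2.95 in kidney and 4.94 in lung. Without regions over other genes Slc12a4 was at 7.86 in liver, with 49.5% covered. Its relative Slc12a7 (83.7 kb) was at 18.5 in heart and 10.6 in kidney, with 11.1 in liver and 2.88 in lung, covered over 71.6% in heart and over 47.2% and 42.7%, just outside the threshold, in kidney and liver. Slc12a9 was at 13.3 in kidney and between 6.46 and 7.44 in the other lists. Its kidney regions reached Srrt, Trip6 and Ephb4, and without them Slc12a9 was at 1.18 tags per kb (6.68% covered). Slc12a8 was at 8.99 tags per kb in heart and 5.28 in lung. Slc12a8 had no region near either end in any list, its regions lying inside the gene. Slc12a5, the neuronal potassium-chloride cotransporter, was covered over at most 2.58%.

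Of the 5 sulfate and carboxylate transporters, 3 were covered in kidney (against 21.1% of all genes) and 1 of these also in liver (against 21.9%). Slc13a1 encodes the sulfate transporter of the proximal tubule brush border (chromosome 6, 24088283 to 24168119, 79.8 kb). It had 11.2 tags per kb in kidney (interval 10.6 to 11.8), 0.109 in liver and no region in heart or lung. Slc13a3, the basolateral dicarboxylate transporter (67.9 kb), had 14.0 in kidney (interval 13.4 to 14.8), 1.32 in liver, 0.133 in lung and none in heart, with 100% of the first of 4 equal parts and 39.0% of the third covered in kidney. Slc13a2, the apical dicarboxylate transporter, had 27.5 in kidney and 17.7 in liver, with 5.42 in lung and none in heart, and kidney was 1.56 times liver, so it did not lead. Slc13a4, a sulfate transporter, was highest in liver at 11.4 tags per kb, against 5.46 in kidney and 3.46 in heart, and at 46.5% lay just outside the threshold there, with no region within 1 kb of its listed start in any list. Slc13a5, the citrate transporter known from hepatocytes, had a 0.953 kb liver region of 17.7 tags over 3.77% of its span and no region near either end in any list.

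**Figure D4:**
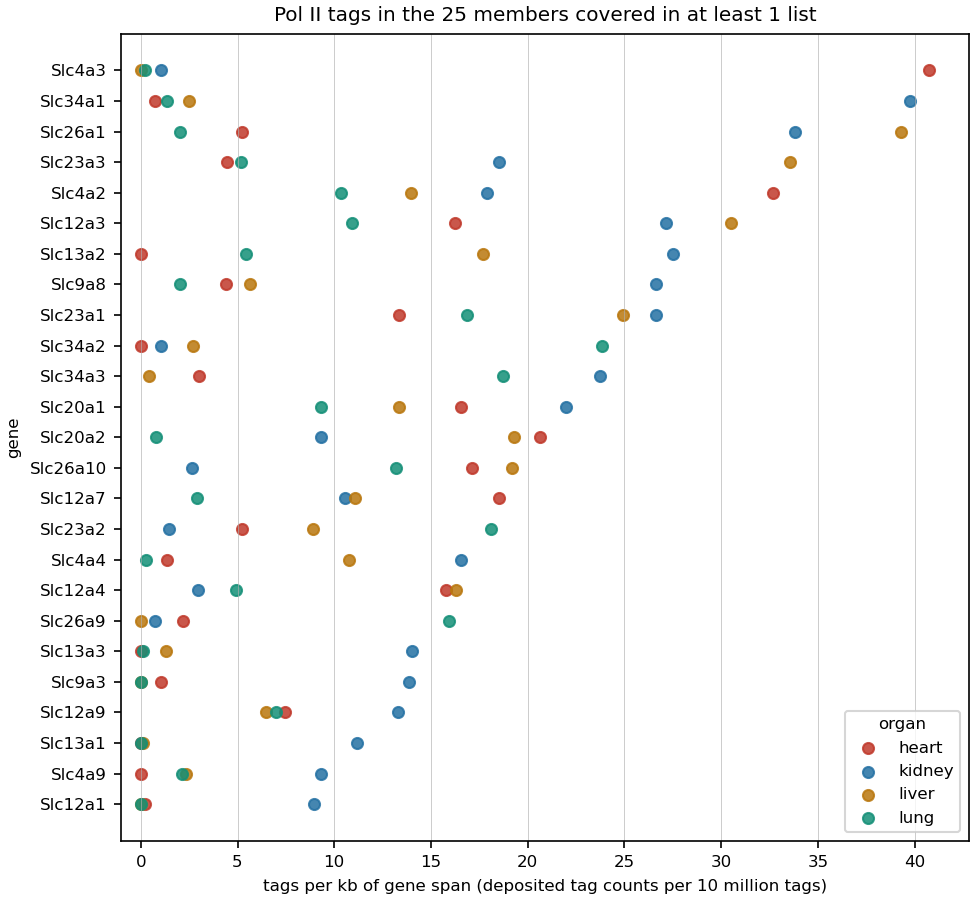
Tags per kb of gene span (horizontal axis, deposited tag counts per 10000000 tags) for the 25 members covered in at least 1 list, with 1 point per organ list. Slc4a3 in heart (40.8) and Slc34a1 in kidney (39.8) lie far to the right of the other organs' points for the same gene, whereas the points of Slc20a1 lie between 9.33 and 22.0.

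Ascorbate transporters were occupied in several organs. Slc23a1, the epithelial ascorbate transporter of kidney and liver (25.6 kb), was at 13.4 tags per kb in heart and 26.6 in kidney, with 24.9 in liver and 16.8 in lung. Its annotated span overlaps Paip2, and with regions over other genes left out it was covered in none of the lists. Slc23a2, the widely expressed ascorbate transporter (92.8 kb), led in lung with 18.1 tags per kb (interval 17.3 to 18.8), against 8.92 in liver, 5.24 in heart and 1.48 in kidney. The lung value was 2.03 times that of liver, so Slc23a2 met the 2 times rule closely and missed a 3 times rule. The 250 bases before the outermost start (minus strand, chr2:132145321-132145570) lay inside regions over 250 bases in liver and 196 in lung, with 105 in heart and 0 in kidney. They held a CAAGTG match and overlapping CCAAT matches on both strands.

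Slc23a2: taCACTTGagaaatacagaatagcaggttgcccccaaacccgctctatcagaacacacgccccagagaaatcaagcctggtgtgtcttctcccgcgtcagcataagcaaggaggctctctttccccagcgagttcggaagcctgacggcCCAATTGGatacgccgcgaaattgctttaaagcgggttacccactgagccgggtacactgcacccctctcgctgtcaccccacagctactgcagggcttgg

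Slc23a3, an orphan relative (9.68 kb), was at 33.5 tags per kb in liver and 18.5 in kidney, with 5.19 in lung and 4.45 in heart. The 38.1 kb liver region that held it also overlapped Cnppd1, Nhej1 and Retreg2, and without regions over other genes Slc23a3 was at 0 in liver and 3.24 in kidney. Slc23a4 was covered over 1.40% in lung and had no region in its span elsewhere.

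Of the 11 anion exchangers of the Slc26a family, 3 were covered in any list and 8 in none. Among all genes 66.9% were covered in none, which is near this share. Slc26a9, a chloride transporter of airway epithelium (chromosome 1, 131744022 to 131771504, 27.5 kb), led in lung with 15.9 tags per kb (interval 14.7 to 17.3). It had 2.19 in heart, 0.757 in kidney and none in liver, and its lung regions overlapped no other protein-coding gene. With the top 50% of regions by score, Slc26a9 was covered over 41.5% in lung and did not lead. A region at its listed start was found in lung and in no other list. The 250 bases before it (plus strand, chr1:131743772-131744021) lay inside a lung region over 250 bases and held a CCAAT box and overlapping TATA matches on both strands.

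Slc26a9: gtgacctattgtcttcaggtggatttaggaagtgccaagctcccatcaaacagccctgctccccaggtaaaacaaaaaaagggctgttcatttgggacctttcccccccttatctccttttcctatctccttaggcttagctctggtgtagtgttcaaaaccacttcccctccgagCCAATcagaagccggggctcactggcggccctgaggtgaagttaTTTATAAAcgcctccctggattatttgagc

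Slc26a1, the sulfate exchanger of the basolateral membrane in kidney and liver (8.50 kb), was at 39.3 tags per kb in liver and 33.8 in kidney, with 5.25 in heart and 2.03 in lung. It overlaps Idua, which encodes a lysosomal enzyme, and tags of the overlapping genes cannot be told apart. Without regions over other genes Slc26a1 was at 0 in kidney and liver. Slc26a10 (9.31 kb) overlaps B4galnt1 and was at 17.1 in heart and 2.65 in kidney, with 19.2 in liver and 13.2 in lung. Without regions over other genes Slc26a10 was at 10.3 in heart, 2.24 in liver and 2.14 in lung. Slc26a2, a sulfate transporter of many tissues, was at 1.55 to 7.57 tags per kb. Slc26a6, Slc26a8 and Slc26a11 had regions near an end in at least 3 lists, with coverage of at most 14.2%, 20.6% and 14.4%. Slc26a4, which encodes pendrin of the inner ear, thyroid and intercalated cells, was covered over 1.75% in kidney and 2.49% in heart. Slc26a3, a chloride exchanger of the gut, and Slc26a7 were covered over less than 2%, and Slc26a5, prestin of the cochlear outer hair cells, had no region in any list.

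Genes that act with these transporters were described from 4 lists. Phosphate hormone and apical scaffold genes were covered for 6 of 10 in kidney (21.1% of all genes) and 2 in liver (21.9%), with 2 in lung (15.1%) and 1 in heart (16.1%). Outside kidney these counts lie near the shares over all genes. Their median was 16.7 tags per kb in kidney against 0.907 over all genes. Pth1r, the parathyroid hormone receptor, was at 31.7 tags per kb in kidney, against 3.56 in heart, 0.954 in liver and 0.345 in lung. The scaffold gene Slc9a3r1 was at 28.5 in kidney and 37.5 in liver, and Pdzk1, another scaffold of the brush border, at 24.8 in kidney and 4.66 in liver. In the WNK kinase cascade that controls Slc12a cotransporters, 3 of 11 genes were covered in kidney and 2 in heart, with 2 in lung and 1 in liver. For kidney, heart and lung these WNK counts lie near the shares over all genes. Wnk4 was at 35.5 tags per kb in kidney and 16.2 in heart, Nedd4l at 19.0 in kidney and 20.1 in liver, and Wnk1 at 12.0 in kidney and 12.5 in heart.

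Bicarbonate and exchanger partners were covered for 7 of 10 in kidney (21.1% of all genes) and 2 in liver (21.9%), with 1 in heart (16.1%) and 1 in lung (15.1%). Car2, the cytosolic carbonic anhydrase of tubule cells, was at 31.3 tags per kb in kidney and 4.54 in lung, with 2.01 in liver and 0 in heart. Car14 was covered over 100% in all 4 lists, at 48.1 tags per kb in heart and 46.0 in liver, with 31.8 in kidney and 19.7 in lung. Atp6v0a4, a proton pump subunit of intercalated cells, was at 28.4 in kidney. Of 10 genes of sodium and potassium handling, 9 were covered in kidney (21.1% of all genes). In each other list 3 were covered, where the shares over all genes were 15.1 to 21.9%. Atp1b1, which encodes a subunit of the sodium pump, was at 52.7 tags per kb in kidney, against 21.2 for lung, 15.8 for liver and 15.4 for heart. Fxyd2, the pump's kidney regulator, was at 44.9 tags per kb in kidney, against 1.14 for heart and 0 for liver and lung.

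**Figure D5:**
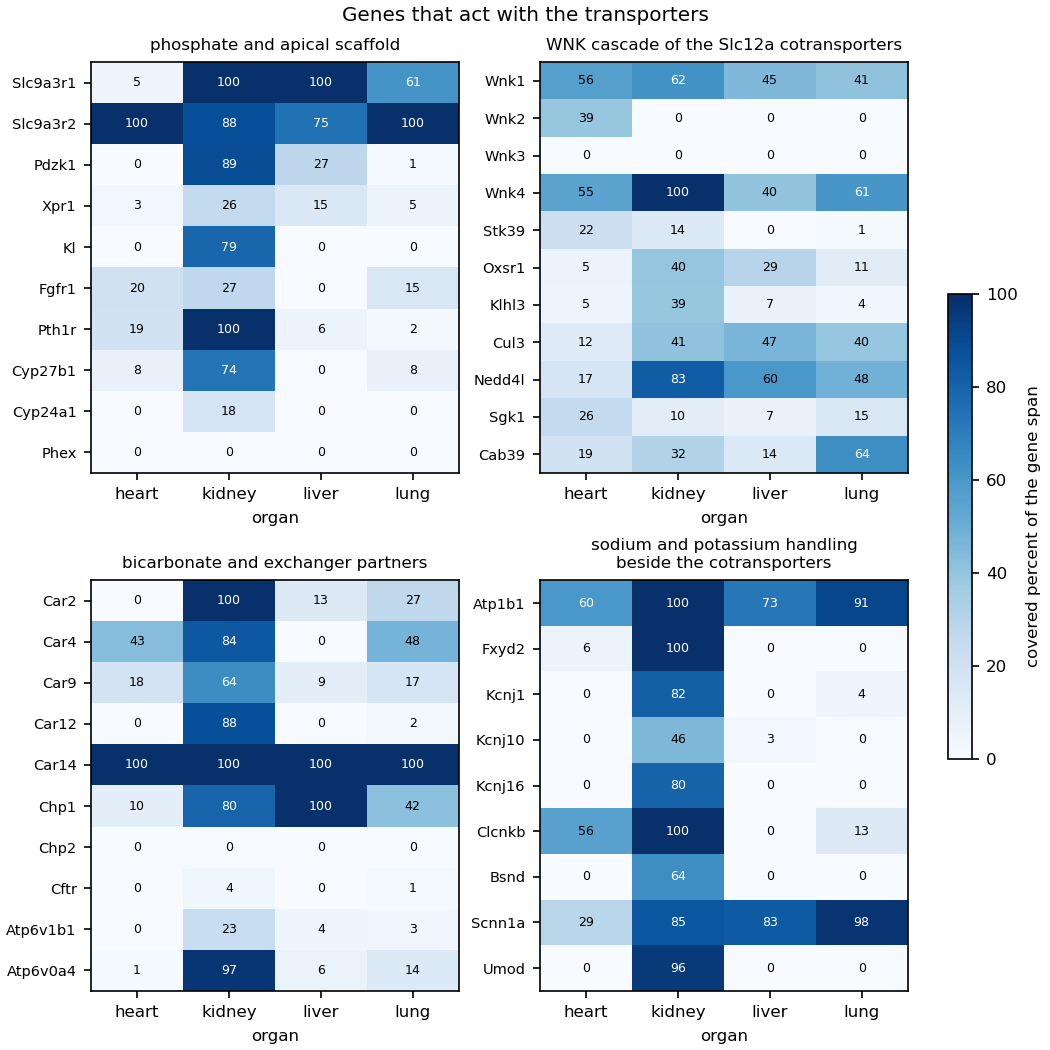
Covered percent of the gene span (colour and printed value) for genes of the 4 lists that act with the transporters, genes in rows and organs in columns. In the sodium and potassium panel every gene shown but Kcnj10 is at 50% or more in kidney, whereas the WNK panel has 3 of 11.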

How the data were processed

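Pol II occupancy was measured in 1 sample per organ. The submitters' processing notes name Bowtie2 2.2.8, HOMER 4.8 and the mm10 build. Per the file headers, the authors called regions with findPeaks in histone style from 500 bp windows joined into longer regions, at a Poisson p of 0.001 and with no control library in the command. Each region carries a deposited signal, its tag count after the authors scaled the library to 10000000 tags. The deposited score was used within a list only, for an alternative. The deposited ratio (clonal fold change) was not used, and deposited region lengths entered no comparison.

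Spans of 21883 protein-coding genes came from RefSeq on GRCm38.p6, the assembly behind mm10. Starts and strand came from the RefSeq promoter table, which holds 38 of the 53 members and 17491 of all genes. The tags of a region were shared evenly over its length. Poisson 95% intervals cover counting error only, treat tags as independent, and leave out biological spread. They also leave out how the tags of a long region really divide among the genes under it. A region near a gene end overlapped by at least 1 bp the 1 kb on either side. By rule, each member at 50% or more in any list was named, with further members of known organ role, the 3 partner genes per list highest in kidney by tags per kb, and promoters of up to 6 leading members by tags per kb. Other members, the parts of Slc4a4 and its promoters, and the comparison within a span range were chosen after their values were seen. Values of some single genes are not reported here, though the counts include them. The members and lists were chosen with earlier results of these data known. The interval code was tested on simulated data, where 100% of 500 spans equalled per-base counts. Python 3.11.15, pandas 2.3.3, NumPy 2.4.6 and SciPy 1.17.1 were used.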

Additional observations from a re-analysis of the deposited data

How the results depend on the processing

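With a threshold of 25% the covered members numbered 14 in heart and 16 in lung, and with 75% they numbered 5 in heart and 9 in kidney, with 4 in liver and 4 in lung. With the top 50% of regions by score they numbered 4 in heart (7.55%, against 9.40% of all genes), 8 in kidney (15.1%, against 12.9%) and 5 in liver (9.43%, against 12.3%). In that setting 18 members had a liver region near an end. With equal covered length there were 7 covered in liver (13.2%, against 18.1% of all genes). Leading members then numbered 2 in heart (3.77%, against 2.96%) and 3 in kidney (5.66%, against 2.45%). With regions over no other gene the covered members were 8 for kidney (15.1%, against 8.55% of all genes), 3 for liver (5.66%, against 7.99%) and 5 for lung (9.43%, against 6.90%). Leading members were 4 in heart (7.55%, against 2.30%) and 4 in kidney (7.55%, against 2.13%). That setting gave median tags per kb of 0.237 in heart and 1.13 in kidney, with 0.0116 in liver and 0.400 in lung, against 0.736, 2.95, 0.424 and 0.950. Using the region with the most tags alone gave medians of 1.36 in kidney and 0.465 in lung, and regions of at least 10 tags 0.587 in lung. With a fold of 1.5 there were 3 leading members in heart and 1 in liver, and with a 25% threshold 1 in liver. For the 25%, 75% and 1.5 times settings no share over all genes is given here, so those counts cannot be set against a background. The same holds for the near-end count with the top 50% by score. A region near a listed start was held by 16, 23, 15 and 18 members in heart, kidney, liver and lung, of the 38 with a listed start. With the top 50% by score 2 members led in heart (3.77%, against 2.67% of all genes) and 3 in kidney (5.66%, against 3.25%). At 25%, covered WNK genes numbered 4 for heart, 7 for kidney, 5 for liver and 5 for lung, and bicarbonate partners 2 for heart and 4 for lung. The other counts of covered, near-end and leading members stayed within 1.5 times. The cause was not tested, except that fewer regions or fewer genes enter by construction. With 1 list per organ no replicate could be left out.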

Other observations

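Some members that lie close together on a chromosome had different values in the same organ. Slc9a4 and Slc9a2 are 50.98 kb apart on chromosome 1 with no protein-coding gene between them. Slc9a2 was covered over 19.2% in kidney, where Slc9a4 had no region. Slc12a7 and Slc9a3 are 269.5 kb apart on chromosome 13, and Slc12a7 was at 18.5 tags per kb in heart and 10.6 in kidney, compared with 1.04 and 13.9 for Slc9a3. Slc26a3 and Slc26a4, 45.9 kb apart on chromosome 12, were both covered over less than 3% in every list. Slc12a5 and Slc13a3 are 405.6 kb apart on chromosome 2, and in kidney the former was covered over 2.58% and the latter over 73.8%. Slc23a3 and Slc4a3 are 410.8 kb apart on chromosome 1, and in heart they were at 4.45 and 40.8 tags per kb and in liver at 33.5 and 0. Slc23a4 and Slc13a4 are 279.5 kb apart on chromosome 6, and in liver they were covered over 0 and 46.5%. The 6 pairs were chosen by distance (under 500 kb), and no test was made.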
